A study of Oryza sativa with 2 samples.

Results

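The first stretch of rice chromosomes 11 and 12 was described as 2 copies of a recent segmental duplication, in wild-type Nipponbare, the japonica cultivar behind the rice reference genome. The loci were chosen by identifier alone, as those listed from LOC_Os11g01010 to LOC_Os11g04990 and from LOC_Os12g01010 to LOC_Os12g04990, which span the locus numbers below 5000. This gave 611 of the 38511 listed loci, 311 on chromosome 11 and 300 on chromosome 12. A further 5 loci of chromosome 11 and 4 of chromosome 12 in this range were not analysed here. Polyadenylated RNA of whole 3-week-old seedlings was sequenced in 2 libraries, both of 1 group, untreated and grown in nutrient solution under days of 10 h light and 14 h dark. The study set transcript levels beside a DNA mark, N6-methyladenine, whose data were not used here. The labels do not say if separate plants went into each library, and part of the spread between libraries may therefore be technical. With 1 group, no test between conditions exists, and the values below are descriptions of these libraries.

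When a segment of a chromosome is duplicated, each gene in it starts with a near-identical partner in the same order on the other chromosome. Over time partners can be lost, can drift apart in sequence and expression, or can be kept alike by gene conversion, in which one copy overwrites the other. The ends of the short arms of rice chromosomes 11 and 12 are a textbook case of such a duplication with frequent gene conversion. Near-identical partners also pose a problem for RNA sequencing, because a read that matches both can be assigned to either. How such reads were assigned is not given in the sources used here, so the split of a level between close partners is uncertain throughout. The files give identifiers without gene names, and 0 of the 611 loci matched the supplied reference table. No function is therefore given for any locus. Chromosome and order were read from the identifiers, in which the number grows along the chromosome, and no genome build or coordinate was used.

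Both copies were expressed to a similar degree, slightly more often on chromosome 12. Expressed here means a mean over the libraries of 1 FPKM or above (FPKM, fragments per kilobase of transcript per 1000000 fragments). This held for 159 loci of chromosome 11, or 51.1%, and for 170 loci of chromosome 12, or 56.7%, against 49.8% of all listed loci. Taken in each library on its own, the share was 51.8% and 52.4% on chromosome 11 in libraries 1 and 2, and 57.0% and 55.0% on chromosome 12. The copies did not overlap in these values, but chromosome 11 minus chromosome 12 was -5.23 percentage points in library 1 and -2.59 in library 2. Among the same locus numbers of all 12 chromosomes, chromosome 11 ranked 8 and chromosome 12 ranked 6 by this share. The other 10 chromosomes ranged from 31.0% on chromosome 10 to 72.5% on chromosome 3. Both starts stood above the rest of their own chromosomes, where 34.8% of loci on chromosome 11 and 41.6% on chromosome 12 were expressed. Values of 0 in both libraries were listed for 69 loci of the chromosome 11 start, or 22.2%, and 62 of the chromosome 12 start, or 20.7%, against 31.7% of the whole series.

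The summed levels of the copies differed by less than the spread between libraries. The sum of chromosome 11 was 2422 and 2460 FPKM in libraries 1 and 2, and that of chromosome 12 was 2478 and 2360 FPKM. The ratio of chromosome 11 over chromosome 12 was 0.978 in library 1 and 1.04 in library 2, so the direction differed between the libraries. Without the 10 highest loci of each copy the ratio was 0.910 and 0.876, below 1 in both. The median locus had 1.19 and 1.25 FPKM on chromosome 11, against 1.61 and 1.55 FPKM on chromosome 12. At 10 FPKM or more stood 49 loci of chromosome 11, or 15.8%, and 66 loci of chromosome 12, or 22.0%, both below the 24.8% of the whole series. The 10 highest loci held 47.6% and 48.5% of the summed level of chromosome 11, and 43.7% and 38.7% of that of chromosome 12. No locus of either copy reached the level of the most abundant transcripts of the seedling. The highest mean here was 255 FPKM, against 9407 FPKM for the highest locus of the series.

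Of the highest loci of chromosome 11, 3 are set here beside a locus of chromosome 12. The first pair shares a locus number, and the others come from a pairing by level and order described further on, so their like level was part of the choice. LOC_Os11g01530, the highest of chromosome 11, had 276 and 233 FPKM in libraries 1 and 2. LOC_Os12g01530, the second of chromosome 12, carries the same locus number and had 187 and 156 FPKM. In both libraries the chromosome 11 locus was the higher of this pair, by 0.56 and 0.58 on the scale of log2(FPKM + 1). LOC_Os11g03400 had 170 and 132 FPKM, and LOC_Os12g03090 had 179 and 141 FPKM. These were the third in each copy, and the chromosome 12 locus was the higher in both libraries, by less than the difference between libraries. LOC_Os11g02440 had 102 and 105 FPKM, and LOC_Os12g02370 had 110 and 86.7 FPKM. They were the fifth in each copy, and their values overlapped.

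The other high loci are given by their own values here. LOC_Os12g04210, the highest of chromosome 12, had 219 and 233 FPKM. LOC_Os11g01600, the second of chromosome 11, had 284 and 191 FPKM, and LOC_Os12g02040, the fourth of chromosome 12, had 141 and 63.7 FPKM. LOC_Os11g02350, the fourth of chromosome 11, was carried by 1 library, with 21.5 and 243 FPKM in libraries 1 and 2. The remaining loci among the 10 highest of chromosome 11 were LOC_Os11g02200, LOC_Os11g04409, LOC_Os11g03390, LOC_Os11g03380 and LOC_Os11g02150, with means from 92.0 down to 45.3 FPKM. Those of chromosome 12 were LOC_Os12g03070, LOC_Os12g03060, LOC_Os12g01620, LOC_Os12g02094 and LOC_Os12g04924, with means from 62.3 down to 39.6 FPKM.

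In windows of 500 equal locus numbers the balance of summed levels between the chromosomes changed along the stretch. Such a window need not hold corresponding loci of both copies. In the pairing by level and order described further on, chromosome 12 partners stood at a median of -20 numbers from 2500 and -280 from 3000. Chromosome 11 had the higher sum in both libraries in 3 of the 8 windows and chromosome 12 in 4. The lowest ratio of chromosome 11 over chromosome 12, 0.388 and 0.447, was in the window from number 2500, with 85.2 and 98.8 FPKM on chromosome 11 and 219 and 221 FPKM on chromosome 12. The ratio was 1.71 and 1.51 in the window from 1500, with 703 and 542 FPKM on chromosome 11 and 410 and 360 FPKM on chromosome 12. LOC_Os11g01530 and LOC_Os11g01600 lie in it. The window from 2000 gave a ratio of 0.997 in library 1 and 1.87 in library 2, and it holds LOC_Os11g02350. The share of expressed loci was lower on chromosome 11 in 6 of 8 windows. It lay between 46.9% and 60.0% on chromosome 11 and between 48.5% and 65.7% on chromosome 12.

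**Figure D1:**
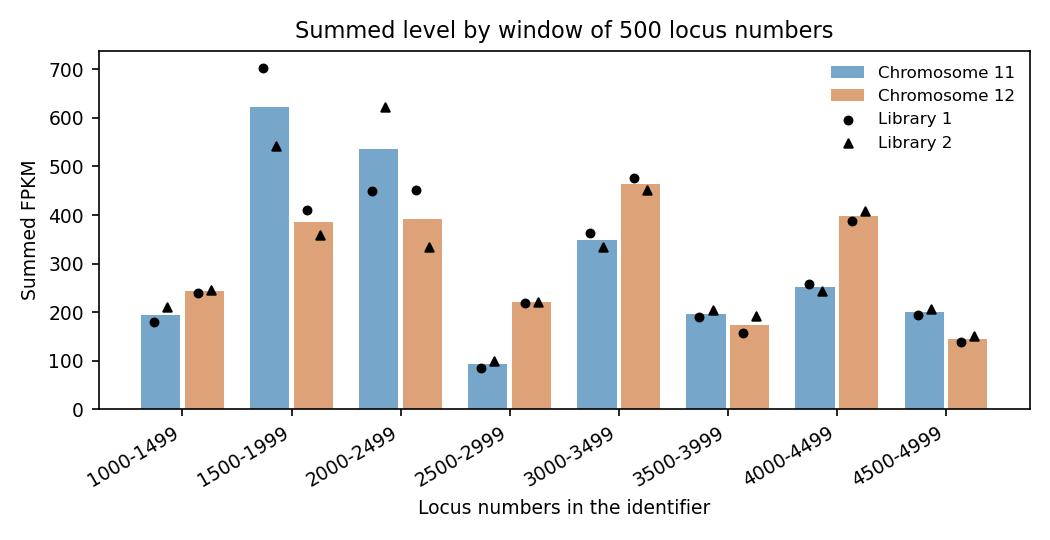
Summed FPKM of the loci in each window of 500 locus numbers (x axis) on chromosome 11 and chromosome 12. Bars are the mean of 2 libraries and points are the libraries. Chromosome 11 is higher in both libraries in 3 windows and chromosome 12 in 4. Windows of equal numbers need not hold corresponding loci of the copies.

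Loci with the same number on both chromosomes were mostly not alike in level, which held somewhat more often still for the other pairs of chromosomes. A shared number does not show that loci are copies of each other. Such a number was shared by 198 loci of each copy. Of the 148 of these pairs with at least 1 locus expressed, 105 differed by 2-fold or more, the same way in both libraries. That is 70.9%, against 79.8% for same-number pairs over the other 65 pairs of chromosomes. Chromosome 11 was the higher in 48 of the 105, or 32.4% of the 148, and chromosome 12 in 57, or 38.5%. Over the other pairs of chromosomes the lower-numbered chromosome was the higher in 46.5% and the higher-numbered one in 33.3%. The order of chromosome numbers is arbitrary, so this split sets no expected direction. Both loci were expressed in 64 pairs. Spearman's rho of the levels was 0.16 over the 198 pairs, the third highest of the 66 pairs of chromosomes, where the others ranged from -0.13 to 0.27. The correlations given here are across loci measured in the same libraries.

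In the 5 same-number pairs that differed most in each direction, the lower locus was under 1 FPKM in both libraries, except that LOC_Os12g03400 had 2.70 and 3.25 FPKM. LOC_Os11g03390 had 52.8 and 43.1 FPKM, against 0 and 0.220 FPKM for LOC_Os12g03390. LOC_Os11g03070 had 0.0820 and 0.0382 FPKM, against 67.8 and 56.8 FPKM for LOC_Os12g03070. The higher loci here, LOC_Os11g03390 and LOC_Os12g03070, were partners in the pairing by level and order described further on. The 5 largest log2 differences of mean level in favour of chromosome 11 ran from 4.57 to 5.46, and included LOC_Os11g01420, LOC_Os11g01890, LOC_Os11g03400 and LOC_Os11g03580. The 5 largest in favour of chromosome 12 ran from -4.33 to -5.90, and included the same numbers as LOC_Os12g01360, LOC_Os12g01620, LOC_Os12g04240 and LOC_Os12g04270. Of the 5 same-number pairs with the highest mean, only the pair numbered 01530 was within 2-fold in both libraries. The others were numbered 02350, 02440, 03400 and 04210.

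A fixed shift between the numberings did not bring the copies together. Chromosome 11 numbers were set against chromosome 12 numbers moved by up to 500 in steps of 10, in windows of 1000 numbers. The highest rho was 0.36 in the window from 1000, 0.43 from 2000, 0.37 from 3000 and 0.33 from 4000. These maxima over 101 shifts ranked between 41 and 111 of up to 132 ordered pairs of chromosomes scanned the same way. Only the window from 2000 was above the median of the others, which was 0.39.

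Pairing by order with gaps allowed gave these copies the highest likeness of all pairs of chromosomes, by a small margin. The 2 lists were paired in locus order so that pairs of like level scored, with a cost for each unpaired locus and partners at most 500 numbers apart. The resulting likeness is 1 for a list set against itself. It was 0.35 for chromosomes 11 and 12 and between -0.02 and 0.34 for the other 65 pairs of chromosomes, with a median of 0.14. The next pair was chromosomes 2 and 3, in which more loci were expressed, 63.8% and 72.5%. In each library alone the likeness of chromosomes 11 and 12 was 0.34 and 0.36, the highest of the 66 pairs in both. It ranked 3 when the cost of an unpaired locus was raised to 1 (0.20), and 4 when partners could be at most 300 numbers apart (0.31). The likeness of the same 2 chromosomes was 0.17 over the next 4000 numbers and 0.09 or lower in each of 4 stretches beyond, where fewer loci were expressed.

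The pairing set 214 loci of each copy side by side, with neither locus expressed in 75 of the pairs. It held 135 of the 159 expressed loci of chromosome 11 and 136 of the 170 of chromosome 12. Because levels chose the partners, their likeness in level is not a finding. The pairing can also be wrong for single loci, so partners are candidates. Of pairs with an expressed locus, the pairing from library 1 alone held 143 and that from library 2 alone held 139. The 89 pairs in common were 62.2% and 64.0% of these lists, above the highest share among the other pairs of chromosomes, 52.9% and 53.9%, whose medians were 24.3% and 25.0%. The shift in number between partners varied along the stretch. The median number of the chromosome 12 partner minus that of the chromosome 11 partner was 1 in the window of 500 from 1000, 14 from 1500, -59 from 2000, -20 from 2500, -280 from 3000, -260 from 3500, -196.5 from 4000 and -210 from 4500.

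**Figure D2:**
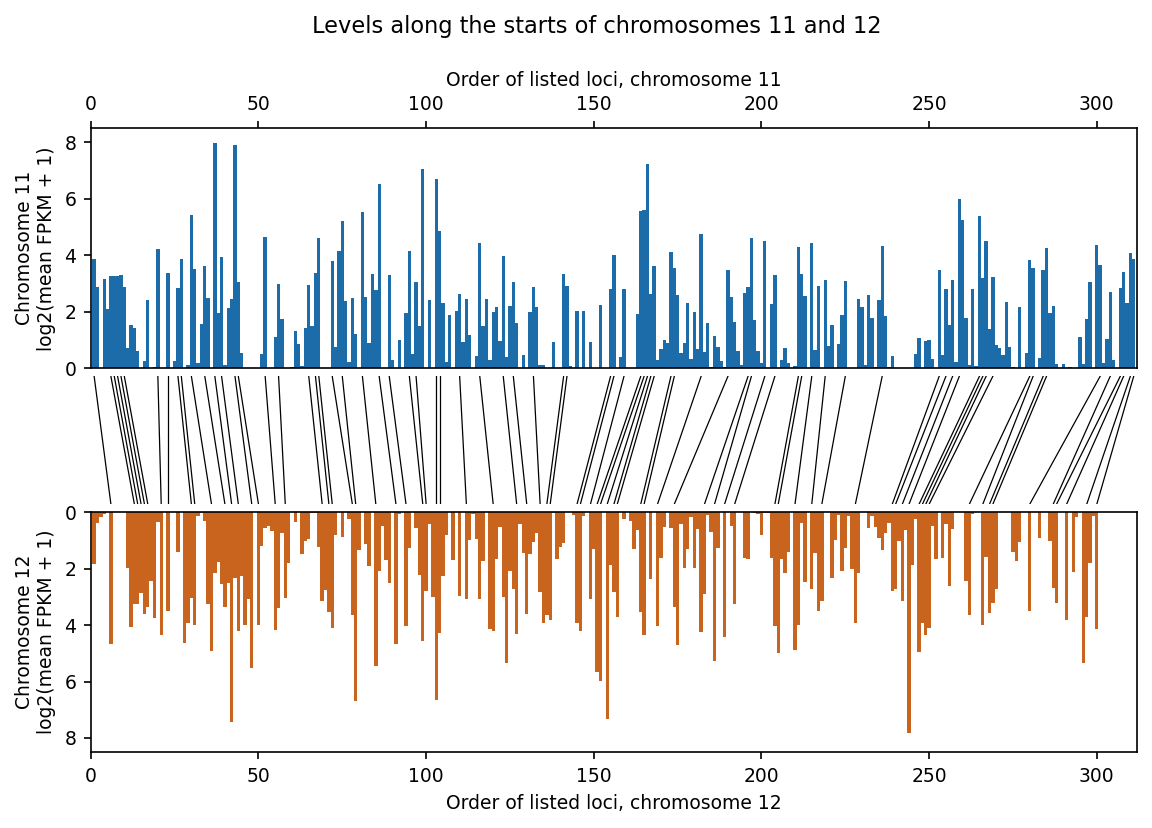
Mean level of each listed locus in order, as log2(mean FPKM + 1), on chromosome 11 (top, bars upward) and chromosome 12 (bottom, bars downward). Lines join the partners of the order-keeping pairing in which both loci reach 5 FPKM, 77 pairs. The highest bars of both copies are mostly joined, which the choice of partners by level favours. Toward chromosome 12 the lines lean mostly to the right in the first part, and to the left from about the middle on.

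Several runs of neighbouring loci had partners that were neighbours too. From LOC_Os11g01154 to LOC_Os11g01200, 5 consecutive listed loci faced 5 from LOC_Os12g01160 to LOC_Os12g01200, all expressed, with sums of 38.6 and 43.1 FPKM on chromosome 11 and 41.8 and 46.1 FPKM on chromosome 12. The longest run held 8 pairs, from LOC_Os11g04170 to LOC_Os11g04230, of which 5 had both loci expressed. Its sums were 37.2 and 29.9 FPKM, against 23.6 and 27.0 FPKM from LOC_Os12g03970 to LOC_Os12g04060. Among the other pairs of chromosomes the longest run ranged from 3 to 10 pairs, so run length did not set this pair apart. A further group was not an unbroken run, because LOC_Os12g03080 is listed between LOC_Os12g03070 and LOC_Os12g03090. It was made of LOC_Os11g03380, LOC_Os11g03390 and LOC_Os11g03400, with 47.5, 52.8 and 170 FPKM in library 1 and 45.9, 43.1 and 132 FPKM in library 2. Their partners LOC_Os12g03060, LOC_Os12g03070 and LOC_Os12g03090 had 51.0, 67.8 and 179 FPKM in library 1 and 49.2, 56.8 and 141 FPKM in library 2. Within the group the last locus was the highest on each chromosome in both libraries. Like levels and sums in these runs are favoured by the choice of partners by level.

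The difference between the libraries, which did not enter the pairing, had a smaller median gap between partners than on any other pair of chromosomes. The measure was not planned and was added, like the pairing, after the levels were seen. It is the gap between the log2 ratios of library 2 over library 1 of the 2 partners. Over the 132 pairs with both partners expressed, the median gap was 0.22. For the other 65 pairs of chromosomes it lay between 0.28 and 0.65, with a median of 0.36, so chromosomes 11 and 12 had the smallest of the 66. The gap was 0.14 over the 77 pairs with both partners at 5 FPKM or more, where the smallest of the others was 0.25, and 0.12 over the 40 pairs at 10 FPKM or more, where it was 0.20. Loci that vary little between the libraries have small gaps with any partner, and the loci of both starts varied less than the whole series, with an SD of log2 ratios of 0.46 against 0.58 over expressed loci. Among the paired loci alone, the median absolute deviation of the log2 ratios was 0.20, against a median of 0.22 for the other pairs of chromosomes, and 16 of these had a lower one. Divided by this deviation, the median gap was 1.07, against 1.24 to 2.20 for the others, again the smallest of the 66, though it ranked 2 from the lowest, at 1.14, when the difference in level was given a weight of 1 in the pairing. It was 0.716 at 5 FPKM or more, where the smallest of the others was 1.12, and 0.504 at 10 FPKM or more, where it was 1.03. A gap of at most 0.2 was found in 65 of the 132 pairs, or 49.2%, against 29.6% for the other pairs of chromosomes. Each stretch enters several of the 66 pairs of chromosomes, those of chromosomes 11 and 12 included. The other pairs are therefore not independent of each other or of this one. Pearson's r of the library ratios was 0.42 over the 132 pairs and 0.56 over the 77, and Spearman's rho was 0.35 and 0.53. The highest values among the other pairs of chromosomes at the same levels were 0.38 and 0.38 for r, and 0.34 and 0.29 for rho. Over the 40 pairs at 10 FPKM or more, r was 0.52, below the 0.56 of chromosomes 3 and 10, and rho was 0.55, where the highest of the others was 0.40. These points share the same libraries, and reads that match both partners would enter both values. The part of such reads was not tested.

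**Figure D3:**
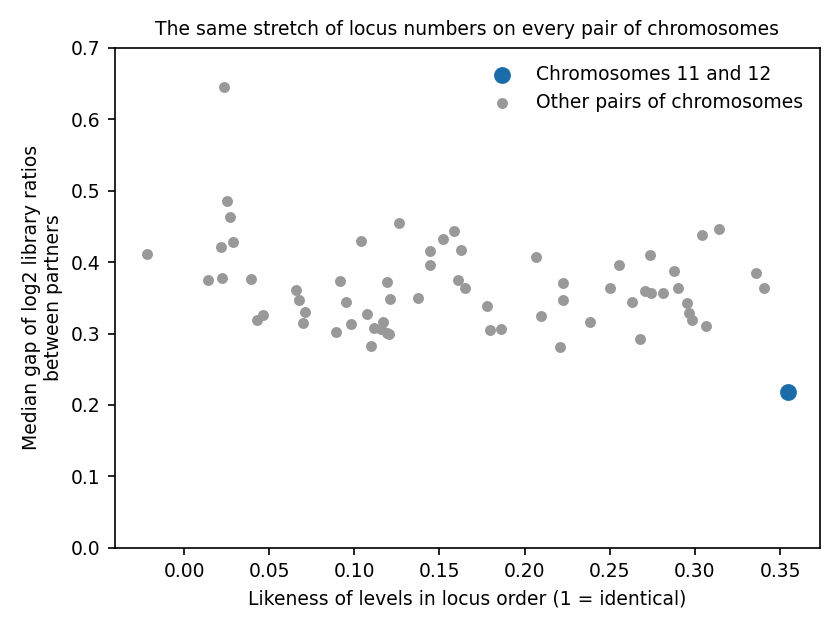
Each point is 1 of the 66 pairs of chromosomes, over the same locus numbers. The x axis is the likeness of levels in locus order and the y axis the median gap of log2 library ratios between partners that are both expressed. Chromosomes 11 and 12 lie at 0.35 and 0.22, at the edge of both ranges.

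Single pairs are given here that were picked, after their values were seen, for library ratios in the same direction. LOC_Os11g02080 had 50.3 and 22.9 FPKM in libraries 1 and 2, and its partner LOC_Os12g02040 had 141 and 63.7 FPKM. The log2 ratios were -1.10 and -1.14, while the chromosome 12 locus was the higher in each library, with a log2 ratio of chromosome 11 over chromosome 12 of -1.46 for the means. LOC_Os11g01740 had 29.5 and 18.8 FPKM and LOC_Os12g01740 had 20.8 and 13.1 FPKM, with a log2 ratio of -0.63 for both. LOC_Os11g03900 had 6.24 and 11.9 FPKM and LOC_Os12g03720 had 15.9 and 45.2 FPKM, both higher in library 2. Over the other pairs of chromosomes, at least 1 partner was 1.5-fold apart between the libraries in 1644 of 5847 pairs with both expressed. Here this held less often, in 25 of 132 pairs. In 6 of the 25 both partners were, in the same direction, which is 24.0%, against 5.35% over the other pairs of chromosomes. In 0 were they apart in opposite directions, against 4.50%.

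**Figure D4:**
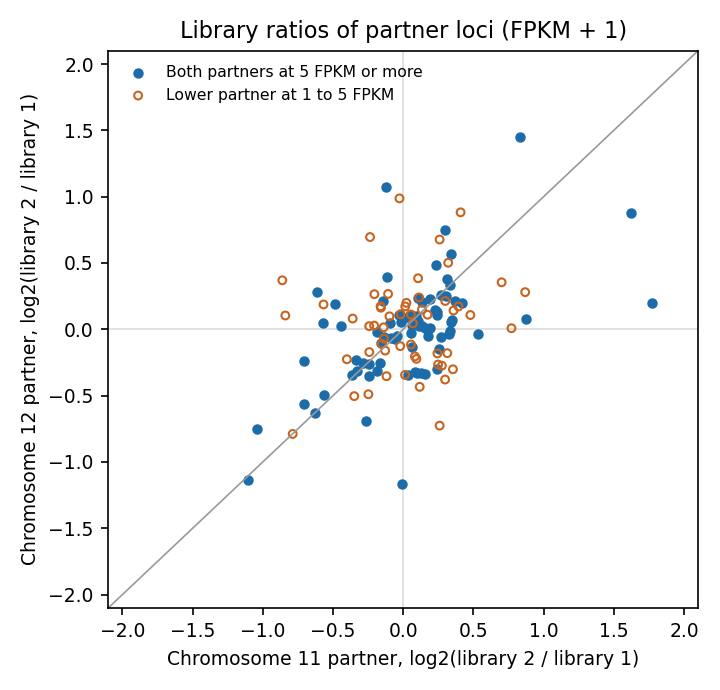
Log2 ratio of library 2 over library 1, on FPKM + 1, of the chromosome 11 partner (x axis) and the chromosome 12 partner (y axis) in the 132 pairs with both expressed. Filled points are the 77 pairs with both partners at 5 FPKM or more, and the line marks equal ratios. Most filled points lie near the line, with exceptions such as LOC_Os11g02520 at 1.77 on the x axis and 0.20 on the y axis.

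The neighbours of the first of these pairs were not partners in the pairing, and are named here for their low library ratios. LOC_Os11g02070, listed just before LOC_Os11g02080, had 24.6 and 9.34 FPKM. LOC_Os12g02030, listed just before LOC_Os12g02040, had 16.3 and 6.70 FPKM. Their log2 library ratios were -1.31 and -1.17, the lowest of each copy at a mean of 10 FPKM or more, so their likeness is part of how they were named. The pairing had set LOC_Os12g02030 beside LOC_Os11g01990, which had 12.9 and 12.8 FPKM and a log2 library ratio of -0.01. Library ratios did not enter the pairing.

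Despite the choice of partners by level, 7 pairs differed by 2-fold or more, the same way in both libraries. They are 5.04% of the 139 pairs with an expressed locus, against 6.09% over the other pairs of chromosomes, a share near the background. Chromosome 11 was the higher in 3 of them, or 2.16%, where the lower-numbered chromosome was in 3.61% of the background. LOC_Os11g01600 had 284 and 191 FPKM, against 44.4 and 45.8 FPKM for LOC_Os12g01620. LOC_Os11g02200 had 94.8 and 89.2 FPKM, against 25.0 and 23.8 FPKM for LOC_Os12g02150. The third was LOC_Os11g01450 with LOC_Os12g01480. Chromosome 12 was the higher in 4, or 2.88%, where the higher-numbered chromosome was in 2.48% of the background. As the order of chromosome numbers is arbitrary, these background shares set no expected direction. LOC_Os11g04409 had 62.6 and 62.9 FPKM, against 219 and 233 FPKM for LOC_Os12g04210. The others were LOC_Os11g02080 with LOC_Os12g02040, LOC_Os11g03900 with LOC_Os12g03720 and LOC_Os11g01875 with LOC_Os12g01930.

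Expressed loci without a partner numbered 24 of 159 on chromosome 11 and 34 of 170 on chromosome 12. The same count was not made for the other pairs of chromosomes, but such loci are not particular to these copies. For chromosomes 2 and 3 the pairing held 159 pairs with an expressed locus, beside 208 and 232 expressed loci. Without a partner at 10 FPKM or more stood 4 of 49 loci on chromosome 11 and 13 of 66 on chromosome 12. The highest was LOC_Os11g02350, the locus carried by library 2. On chromosome 12 the highest were LOC_Os12g04924, with 42.4 and 36.8 FPKM, and LOC_Os12g02660, with 36.6 and 42.3 FPKM. LOC_Os11g02350 lies beside the numbers that were not analysed here on both chromosomes, so its lack of a partner says nothing about chromosome 12.

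The loci of both starts were also compared between the libraries. A 2-fold difference was found at 14 of the 329 expressed loci, or 4.26%, against 6.75% over the whole series. With a pseudocount of 0.1 it was 24 loci, or 7.29%, against 9.37% over the whole series, and with libraries rescaled to the same sum it was 23 of 359, or 6.41%, against 7.95%. On chromosome 11 there were 9 of 159 and on chromosome 12 there were 5 of 170. Higher in library 2 were 7, or 2.13%, against 3.26%, and higher in library 1 were 7, against 3.49%. With 1 library on each side, these differences cannot be tested. Among loci that averaged at least 10 FPKM, the highest log2 ratio was that of LOC_Os11g02350, at 3.44. LOC_Os11g04720 followed, at 1.62, with 8.51 and 28.3 FPKM, and its partner LOC_Os12g04510 had 5.63 and 11.2 FPKM. LOC_Os12g03720 was next, with a log2 ratio of 1.45. A value of 0 beside 10 FPKM or more in the other library occurred at 0 loci.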

How the data were processed

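The authors deposited FPKM values, 1 for each locus in each library, per the file headers, made with Cufflinks, per the submitters' processing notes. Not given in the sources used here: the aligner, build, annotation, strand setting and handling of reads with several matches. The files sum to 670155 and 651935 FPKM, and depth in reads is unknown, so no counting interval is given and no count model was used. Values were used as deposited, with log2 ratios on FPKM + 1, which understates changes of low loci.

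The loci to be named were the 10 highest of each copy, the 3 highest and 3 lowest library ratios at 10 FPKM or more, the extreme same-number pairs and loci at 0 in 1 library. Pairs at the best fixed shift were not named, because the shifts did not set the copies apart. The loci and lists were chosen with earlier results of these data known. The order-keeping pairing, its settings and the pairs it names were chosen after the levels were seen. So was the gap of library ratios between partners. In the pairing, levels x and y as log2(mean FPKM + 1) add the lower of them minus 2 times their difference, and an unpaired locus costs 0.5. The total is divided by the geometric mean of the summed levels. Python 3.11.15, numpy 2.4.6, pandas 2.3.3, scipy 1.17.1 and numba 0.67.0 were used.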

Additional observations from a re-analysis of the deposited data

How the results depend on the processing

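Alternatives to the pairing by order, and to the difference in shares, were chosen after seeing the data. The share of expressed loci was 70.4% on chromosome 11 and 73.0% on chromosome 12 at 0.1 FPKM, 29.6% and 33.7% at 5 FPKM, 56.6% and 61.0% when both libraries were rescaled to the same sum, 54.3% and 61.2% at numbers below 3000, and 48.5% and 52.3% from 3000 on. In single libraries it was 51.8% to 52.4% and 55.0% to 57.0%. Chromosome 11 minus chromosome 12 stayed negative throughout, at -5.54 percentage points as reported, -2.58 at 0.1 FPKM and -5.23 to -2.59 in single libraries. The ratio of summed levels changed direction: it was 1.01 as reported, 0.999 without the highest locus of each copy, 0.893 without the 10 highest, and 0.978 to 1.04 in single libraries. Same-number pairs 2-fold apart were 113 of 148 (76.4%) with a pseudocount of 0.1, 79 of 104 (76.0%) at 5 FPKM and 105 of 198 (53.0%) without a filter. In single libraries they were 116 of 149 (77.9%) and 114 of 145 (78.6%). The share over the other pairs of chromosomes was not computed at these settings. The highest rho at a fixed shift was 0.22 over pairs with an expressed locus, 0.69 in windows of 500 numbers with 21 pairs, 0.31 in windows of 2000, and 0.40 to 0.45 in single libraries. The other chromosomes were not scanned at these settings, so the 0.69 has no background to be set against. Loci 2-fold apart between the libraries numbered 24 with a pseudocount of 0.1 and 23 with libraries rescaled, which lifts more loci to 1 FPKM. The likeness of the copies was 0.45 at a cost of 0.25, 0.20 at a cost of 1, 0.49 with a weight of 1, 0.31 within 300 numbers and 0.34 to 0.36 in single libraries. The median gap of library ratios was the smallest of the 66 pairs of chromosomes under every alternative run, at 0.20 with a cost of 0.25, 0.19 with a cost of 1, 0.23 with a weight of 1, 0.22 within 300 numbers, 0.20 with the pairing from either library alone, 0.14 at 5 FPKM, 0.12 at 10 FPKM and 0.24 with a pseudocount of 0.1. Divided by the deviation of the ratios, the gap was 1.07 as reported, 0.966 with a cost of 0.25, 0.906 with a cost of 1, 0.952 and 0.972 with the pairing from library 2 or library 1 alone, 0.716 at 5 FPKM, 0.504 at 10 FPKM and 0.989 with a pseudocount of 0.1, the smallest of the 66 in each, and 1.14 with a weight of 1, where it ranked 2 from the lowest. The cause of these changes was not tested. No paired analysis was possible because the design has a single group. Levels under 1 FPKM are of unknown precision, since depth in reads is unknown.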
